A study of Mus musculus with 7 samples.

Results

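The MHC class II genes and their transactivator gene Ciita were followed through 3 sorted mouse spleen populations on Illumina single-colour bead arrays. The 10 genes were chosen by name: the classical chain genes H2-Aa, H2-Ab1 and H2-Eb1, the invariant chain gene Cd74, the peptide editor genes H2-DMa, H2-DMb1 and H2-DMb2, the editor's inhibitor genes H2-Oa and H2-Ob, and Ciita. They had 14 probes among the 25697 on the array, 4 of them for H2-Ab1 and 2 for Cd74, and all 10 were among the 7425 genes tested. The 7 samples were 2 of plasma cells, sorted as B220low CD138+, 3 of plasmablasts, sorted as B220mid CD138+, and 2 of naive B cells, sorted as B220+ CD43-. Plasma cells and plasmablasts came from spleens at day 3 after lipopolysaccharide (LPS), and naive B cells from naive mice whose agent is labelled as control. All samples are labelled C57Bl/6J, female and 10 weeks old, with no transgene or deletion named. The labels number the replicates without saying whether each came from its own mouse, so the p-values speak only of the spread among these samples, and that spread may be technical.

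MHC class II molecules carry peptides from engulfed antigen to the surface of B cells, dendritic cells and macrophages, where CD4 T cells read them. Each is a pair of an alpha and a beta chain that travels from the endoplasmic reticulum with the invariant chain, which blocks the groove until it is cut down to a short fragment. H2-DM then swaps that fragment for antigen peptides, and H2-O, found mainly in B cells, holds H2-DM back. Ciita protein does not bind DNA itself. It is recruited by factors that sit on the X and Y boxes of the class II promoters, and plasma cells are known for losing Ciita and class II as they mature, with Blimp-1 (Prdm1) acting as a repressor of Ciita.

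The promoters of the members are shown as background, and levels are not compared by box below. Promoters from RefSeq, build GRCm38.p6, were matched by symbol for 7 of the 10 genes. Each window of 300 bases was searched on both strands for AACNNATGATG, which overlaps the X box, and for TGATTGG, which holds the inverted CCAAT of the Y box. The first of these is what the members with ATGATG at most 40 bases before TGATTGG share, with N where they differ. The second run of letters was found in 6 of the 7 genes and in 7.82% of all 32851 promoter windows, and the first in 4 of the 7 genes and in 0.137% of all windows. Both were present in 9 windows, of H2-DMb2, H2-DMb1, H2-Ob, H2-Eb1, Nubp2 (2 windows), Spsb3 (2 windows) and Gm38969. The letters were picked after the members' promoters had been read, so these shares describe the windows and test nothing. Only exact matches were counted, so a window without a match may still hold an X or Y box in other letters. The last 130 bases before the start are printed 5′ to 3′ on the gene's strand, with both runs of letters in capitals, which did not overlap. In order they cover chr17:34287824-34287953 (minus strand), chr17:34305737-34305866, chr17:34145119-34145248, chr17:34153061-34153190, chr17:34092249-34092378 and chr17:34238775-34238904 (plus strand).
H2-Aa: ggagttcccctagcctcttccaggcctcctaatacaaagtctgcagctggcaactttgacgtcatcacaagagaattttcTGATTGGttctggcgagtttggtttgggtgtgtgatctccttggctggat
H2-Eb1: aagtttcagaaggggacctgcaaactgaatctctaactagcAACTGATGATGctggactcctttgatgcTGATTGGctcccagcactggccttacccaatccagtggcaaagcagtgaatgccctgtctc
H2-DMb2: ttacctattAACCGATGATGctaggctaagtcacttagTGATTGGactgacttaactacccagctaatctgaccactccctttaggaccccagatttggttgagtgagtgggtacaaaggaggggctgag
H2-DMb1: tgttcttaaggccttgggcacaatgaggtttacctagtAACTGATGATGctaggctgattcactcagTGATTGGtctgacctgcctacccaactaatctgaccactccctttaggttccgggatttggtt
H2-Oa: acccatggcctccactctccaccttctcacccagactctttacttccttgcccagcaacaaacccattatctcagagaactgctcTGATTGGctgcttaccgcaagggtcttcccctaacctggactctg
H2-Ob: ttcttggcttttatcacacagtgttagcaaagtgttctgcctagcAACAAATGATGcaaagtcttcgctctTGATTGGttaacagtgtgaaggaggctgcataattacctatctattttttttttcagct
Between the 2 runs lay 17 bases in H2-Eb1, 18 in H2-DMb2, 18 in H2-DMb1 and 15 in H2-Ob. Over the stretch from the first run to the end of the second, H2-DMb2 and H2-DMb1 were identical at 32 of 36 bases. H2-Ab1, Ciita and Cd74 are not printed here, and neither of the 2 windows of H2-DMa held either run of letters.

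Levels are normalized log2 signals, so a difference of 1 is a 2-fold change, and since probes bind with unequal strength, levels are compared between populations and not between genes. Calls rest on a limma model fitted to all 7425 genes, with p-values adjusted by Benjamini and Hochberg's method and a threshold of 0.05. Probes above background (detection p under 0.01) made up 34.3 to 38.6% of each array. Of 7 measured B cell markers, 3 to 4 were above background on plasma cell arrays, 5 on plasmablast arrays and 6 on naive B cell arrays, and their summed signal was 13328 to 14848 in plasma cells, 35177 to 38074 in plasmablasts and 78458 to 82315 in naive B cells. All 6 antibody-secreting cell markers, such as Sdc1 (CD138), were above background on plasma cell and plasmablast arrays, with summed signals of 40438 to 43130 and 54766 to 56577, against 2 markers and 7904 to 7971 on naive B cell arrays. Markers of other cells were present too. Macrophage and monocyte markers summed to 51473 to 52051 on plasma cell arrays (8 to 9 of 11 above background), to 1256 to 2159 on plasmablast arrays (2 of 11) and to 33792 to 39315 on naive B cell arrays (11 of 11). Lyz2 alone carried most of the plasma cell sum, at a log2 signal of 15.32 and 15.33 against 11.97 and 12.17 in naive B cells. Of the 11, 6 were lower and 3 higher in plasma cells than in naive B cells (median log2 difference -2.60), beside 37.8% and 33.3% of all genes. In plasmablasts 10 of the 11 were lower and 0 higher than in naive B cells (median -5.21), beside 37.8% and 35.3% of all genes. Dendritic cell markers, of which Flt3, Zbtb46, Xcr1, Clec9a and Siglech were below background on all 7 arrays, summed to 634 to 647 in plasma cells (2 of 9 above background), 320 to 335 in plasmablasts (0 of 9) and 806 to 911 in naive B cells (2 to 3 of 9). Neutrophil markers summed to 9023 to 10908 in plasma cells (4 of 9), 1652 to 5774 in plasmablasts (2 to 5 of 9) and 350 to 418 in naive B cells (0 to 1 of 9). T and NK cell markers summed to 3818 to 4012 in plasma cells (6 of 9), 939 to 1459 in plasmablasts (3 to 4 of 9) and 422 to 443 in naive B cells (0 to 1 of 9). Macrophages and dendritic cells carry class II themselves, and their part in the class II differences below was not tested. In bulk samples, fewer cells of a type and less RNA per cell cannot be told apart.

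Class II expression was lower in both LPS populations than in naive B cells. For Cd74 in plasmablasts the call depended on the processing, as given below. In plasma cells 10 of 10 genes fell relative to naive B cells, where 37.8% of all genes tested were called lower, with a median log2 difference of -3.38 beside -0.08 over all genes. In plasmablasts 10 of 10 fell relative to naive B cells, again beside 37.8% of all genes, with a median of -2.73 beside -0.02 over all genes. Between plasma cells and plasmablasts 8 of 10 fell and 0 rose, beside 46.0% of all genes called lower, and the median was -1.31 beside -0.22 over all genes. These 8 were lower in plasmablasts than in naive B cells and lower in plasma cells than in plasmablasts, as were 8.98% of all genes. Both LPS populations were taken at day 3, so this order is not a time course. On the arrays themselves, 10 of 10 genes did not overlap and were lower in plasma cells than in naive B cells (46.4% of all genes), 10 of 10 in plasmablasts than in naive B cells (42.7%), and 8 of 10 in plasma cells than in plasmablasts (51.3%). Of the 14 probes, 14 were called lower in plasma cells and 13 in plasmablasts against naive B cells, beside 37.4% and 36.4% of all probes tested, and 12 in plasma cells against plasmablasts, beside 46.3%. The 3 comparisons share arrays and are therefore not independent of each other.

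**Figure D1:**
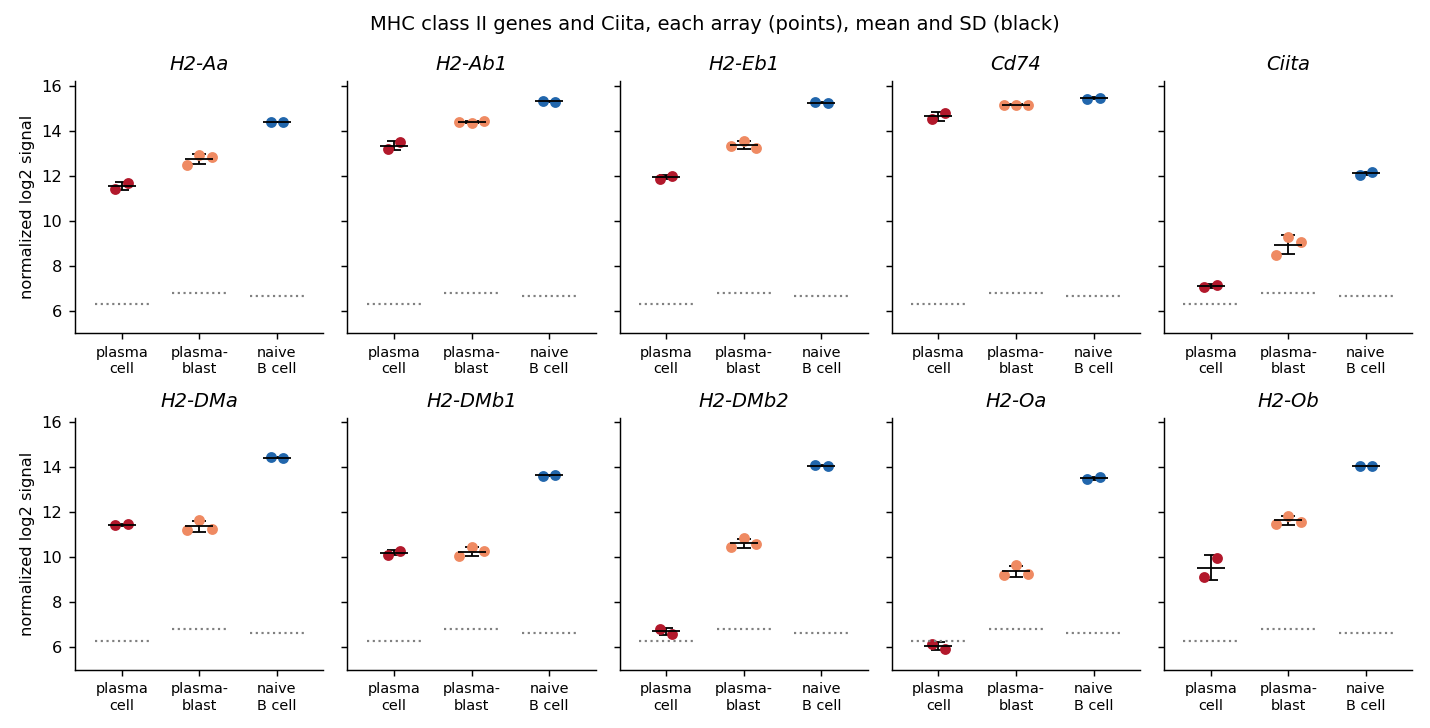
Normalized log2 signal of the 10 genes on each array (points), with the mean and SD of each population in black, for 2 plasma cell, 3 plasmablast and 2 naive B cell arrays. The dotted line is the highest of the group's limits of detection. H2-DMa and H2-DMb1 stand at overlapping levels in plasma cells and plasmablasts, while H2-Oa lies below the limit and H2-DMb2 just above it in plasma cells.

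Ciita, the master coactivator of class II transcription, was highest in naive B cells, lower in plasmablasts and lowest in plasma cells. Its log2 signal was 7.03 and 7.15 on the plasma cell arrays, 8.46, 9.27 and 9.05 on the plasmablast arrays, and 12.04 and 12.15 on the naive B cell arrays. The 3 populations did not overlap, and plasma cells lay close above the limit of detection of 6.27 to 6.29 on their arrays. In scanner units that was 297 and 318 in plasma cells against 4156 and 4824 in naive B cells, before background was removed. Ciita was 32.1-fold lower in plasma cells than in naive B cells (adjusted p = 6.06e-07) and 8.98-fold lower in plasmablasts than in naive B cells (adjusted p = 3.32e-06). In plasma cells it was 3.58-fold lower than in plasmablasts (adjusted p = 9.5e-05). Without background correction these plasma cell values were 16.8-fold against naive B cells and 2.32-fold against plasmablasts. A larger fall between plasma cells and naive B cells was measured for 0.337% of the genes tested. The array carries 1 probe for Ciita, and the promoter from which its transcripts started was not analysed here.

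The classical chains, which form the peptide groove, were 1.86- to 3.70-fold lower in plasmablasts than in naive B cells, while the H2-DM and H2-O genes were 5.33- to 17.6-fold lower there. These folds use the 1 probe that stands for each gene. The folds of H2-Ab1 and H2-Eb1 rest on probes near the top of the signal range in naive B cells, as given below. Another H2-Ab1 probe, the dimmest in naive B cells, had a log2 difference of -2.02 in plasmablasts, beside -2.41 for H2-Ob. The H2-Aa probe stood at 45.3% and 46.0% of the brightest signal on those arrays, and the H2-DMa probe at 46.8% and 46.7%. H2-Aa, the alpha chain of I-A, stood at 11.42 and 11.68 in plasma cells, 12.48, 12.91 and 12.82 in plasmablasts, and 14.37 and 14.38 in naive B cells. It fell by 2.82 in plasma cells (adjusted p = 1.46e-06) and by 1.64 in plasmablasts (adjusted p = 1.5e-05), both against naive B cells, with no overlap between any populations. H2-Eb1, the beta chain of I-E, stood at 11.86 and 12.00 in plasma cells, 13.32, 13.54 and 13.21 in plasmablasts, and 15.27 and 15.22 in naive B cells. Its log2 differences against naive B cells were -3.32 in plasma cells and -1.89 in plasmablasts (adjusted p = 2.36e-07 and 2.02e-06), and its probe stood at 88.2% and 85.6% of the brightest signal on the naive B cell arrays. H2-Ab1, the beta chain of I-A, stood at 13.19 and 13.47 in plasma cells, 14.40, 14.36 and 14.44 in plasmablasts, and 15.31 and 15.28 in naive B cells on the probe with the highest mean. Between plasma cells and plasmablasts the log2 differences were -1.19 for H2-Aa, -1.07 for H2-Ab1 and -1.43 for H2-Eb1 (adjusted p = 0.000116, 3.23e-05 and 1.35e-05).

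The size of the H2-Ab1 change depended on the probe. On naive B cell arrays its 4 probes reached 88.7 to 90.7%, 92.3 to 94.5%, 79.2 to 84.0% and 62.2 to 64.4% of the brightest signal of the array. Their log2 differences between plasma cells and naive B cells were -1.96, -2.42, -2.54 and -3.23 in that order, and those between plasmablasts and naive B cells were -0.89, -1.37, -1.42 and -2.02. The probe that was dimmest in naive B cells showed the largest fall in both comparisons, and the probe that stands for the gene the smallest. Between plasma cells and plasmablasts, where all 4 probes were at most 49.3% of the brightest signal, the differences lay closer together, from -1.05 to -1.21. Whether signals near the top of the scanner range were compressed was not tested.

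Cd74, the chaperone of newly made class II and also a surface receptor, changed least. Its brighter probe stood at 14.49 and 14.78 in plasma cells, 15.15, 15.15 and 15.11 in plasmablasts, and 15.40 and 15.46 in naive B cells. It fell by 0.79 in plasma cells against naive B cells (adjusted p = 0.000337) and by 0.50 in plasma cells against plasmablasts (adjusted p = 0.00242). In plasmablasts against naive B cells the fall was 1.22-fold, with a log2 difference of -0.29 (adjusted p = 0.0325). That last call was lost without any 1 of the 2 naive B cell or 3 plasmablast arrays (Cd74 adjusted p = 0.0623 to 0.129), and the difference was 0.10 under 75th percentile scaling (adjusted p = 0.407). This probe was the brightest of all on naive B cell replicate 2, at 95.1% of the brightest on naive B cell replicate 1, at 78.1 to 80.9% in plasmablasts and at 54.0 to 62.0% in plasma cells, so the limit stated for H2-Ab1 applies here most. The second probe had log2 differences of -0.78 and -0.24 against naive B cells in plasma cells and plasmablasts (adjusted p = 0.000788 and 0.098).

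**Figure D2:**
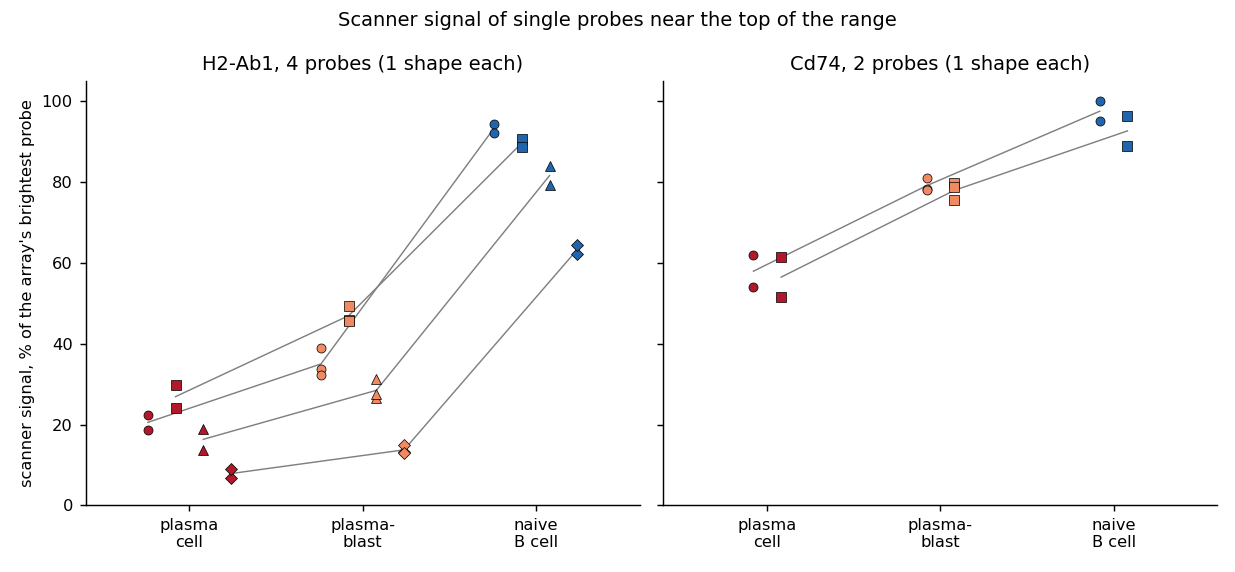
Scanner signal of each H2-Ab1 and Cd74 probe as a percentage of the brightest probe on the same array, without background removal. Points are arrays, shapes are probes and grey lines join population means. In naive B cells 3 of 4 H2-Ab1 probes exceed 79% and both Cd74 probes exceed 88% of the brightest signal.

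H2-DM, the peptide editor, is a dimer of the H2-DMa chain with a beta chain from either H2-DMb1 or H2-DMb2, neighbouring genes. All 3 fell in plasmablasts against naive B cells, H2-DMa 8.24-fold and H2-DMb1 10.5-fold, and 1 of the 3, H2-DMb2, was called lower in plasma cells than in plasmablasts. H2-DMa stood at 11.41 and 11.48 in plasma cells, 11.21, 11.67 and 11.25 in plasmablasts, and 14.44 and 14.40 in naive B cells. H2-DMb1 stood at 10.12 and 10.28 in plasma cells, 10.06, 10.44 and 10.26 in plasmablasts, and 13.62 and 13.66 in naive B cells. For both genes plasma cells and plasmablasts overlapped and naive B cells stood far above. Against naive B cells H2-DMa had log2 differences of -2.97 in plasma cells and -3.04 in plasmablasts, and H2-DMb1 of -3.44 in plasma cells and -3.39 in plasmablasts, all called. Between plasma cells and plasmablasts H2-DMa had a log2 difference of 0.07 (95% interval -0.26 to 0.39, adjusted p = 0.666) and H2-DMb1 one of -0.06 (95% interval -0.34 to 0.23, adjusted p = 0.689). The sign of both differences changed under other scalings or without 1 array, within a range of -0.15 to 0.32.

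H2-DMb2 separated from its partner genes in plasma cells. Its log2 signal was 6.83 and 6.58 in plasma cells, 10.45, 10.85 and 10.57 in plasmablasts, and 14.11 and 14.05 in naive B cells. The plasma cell signal lay just above the limit of detection, at 278 and 259 scanner units, against 1249, 1703 and 1489 in plasmablasts. The log2 difference was -3.92 between plasma cells and plasmablasts (15.1-fold, adjusted p = 1.2e-07), -7.37 between plasma cells and naive B cells (adjusted p = 3.33e-08), and -3.45 between plasmablasts and naive B cells (adjusted p = 2.2e-07). Without background correction the differences of plasma cells were -2.86 against plasmablasts (7.24-fold) and -6.21 against naive B cells (73.8-fold). In plasma cells against plasmablasts H2-DMb2 ranked as number 4 among the falls of all 7425 genes. Within an array, the H2-DMb2 signal minus the H2-DMb1 signal was -3.29 and -3.69 in plasma cells, 0.39, 0.41 and 0.31 in plasmablasts, and 0.49 and 0.39 in naive B cells. The level of such a difference reflects the probes, so only its change between populations is read. The change between plasma cells and plasmablasts was -3.86, with p = 0.2 in a two-sided exact permutation test, the smallest p that 2 against 3 arrays allow. The change between plasmablasts and naive B cells was -0.07 (exact p = 0.4, smallest possible 0.2). In plasma cells the difference was -2.46 in the authors' normalized table and -2.47 without background correction. Of the macrophage and monocyte markers, 10 of 11 rose in plasma cells relative to plasmablasts, beside 28.7% of all genes, among them the lysozyme gene Lyz2 by 5.32 and the F4/80 gene Adgre1 at least 30.3-fold. Against naive B cells, from which the within-array difference of plasma cells changed by -3.93, 3 of 11 were higher and 6 lower in plasma cells, beside 33.3% and 37.8% of all genes. Their part in the levels of H2-DMa and H2-DMb1 was not tested. H2-DMb1 and H2-DMb2 are close paralogues, and whether either probe also binds the other transcript was not tested.

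**Figure D3:**
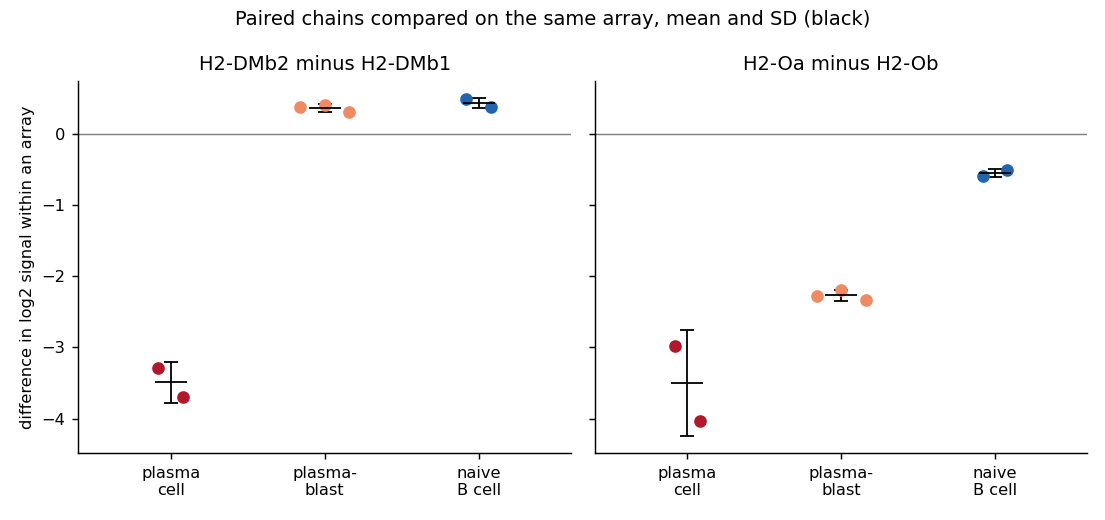
Difference in log2 signal between 2 related genes on the same array (points), with mean and SD in black, in plasma cells, plasmablasts and naive B cells. H2-DMb2 minus H2-DMb1 stays between 0.31 and 0.49 on the plasmablast and naive B cell arrays and is -3.29 and -3.69 on the plasma cell arrays. H2-Oa was below background in plasma cells, so the plasma cell points of the right panel are not measured differences.

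H2-O, the inhibitor of H2-DM, showed large falls in both chains. H2-Oa, the alpha chain, stood at 6.16 and 5.91 in plasma cells, 9.20, 9.66 and 9.25 in plasmablasts, and 13.46 and 13.55 in naive B cells. Both plasma cell arrays were below background for it, so its falls there are limits. H2-Oa was at least 150-fold lower in plasma cells than in naive B cells (adjusted p = 3.5e-08) and at least 8.52-fold lower than in plasmablasts (adjusted p = 6.46e-07). These limits hold on the background-corrected scale: without background correction the fitted values were 59.8-fold against naive B cells and 4.04-fold against plasmablasts. In plasmablasts it was 17.6-fold lower than in naive B cells (adjusted p = 1.88e-07), the largest fall among the 10 genes in that comparison. H2-Ob, the beta chain, stood at 9.14 and 9.94 in plasma cells, 11.48, 11.85 and 11.58 in plasmablasts, and 14.04 and 14.06 in naive B cells. The 2 plasma cell arrays were further apart for H2-Ob than for any other of the 10 genes (SD 0.57), yet the populations did not overlap. H2-Ob was 22.7-fold lower in plasma cells (adjusted p = 1.28e-06) and 5.33-fold lower in plasmablasts (adjusted p = 2.07e-05) than in naive B cells. The within-array difference H2-Oa minus H2-Ob was -2.28, -2.19 and -2.33 in plasmablasts against -0.58 and -0.51 in naive B cells, a change of -1.72 (exact permutation p = 0.2, the smallest possible).

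**Figure D4:**
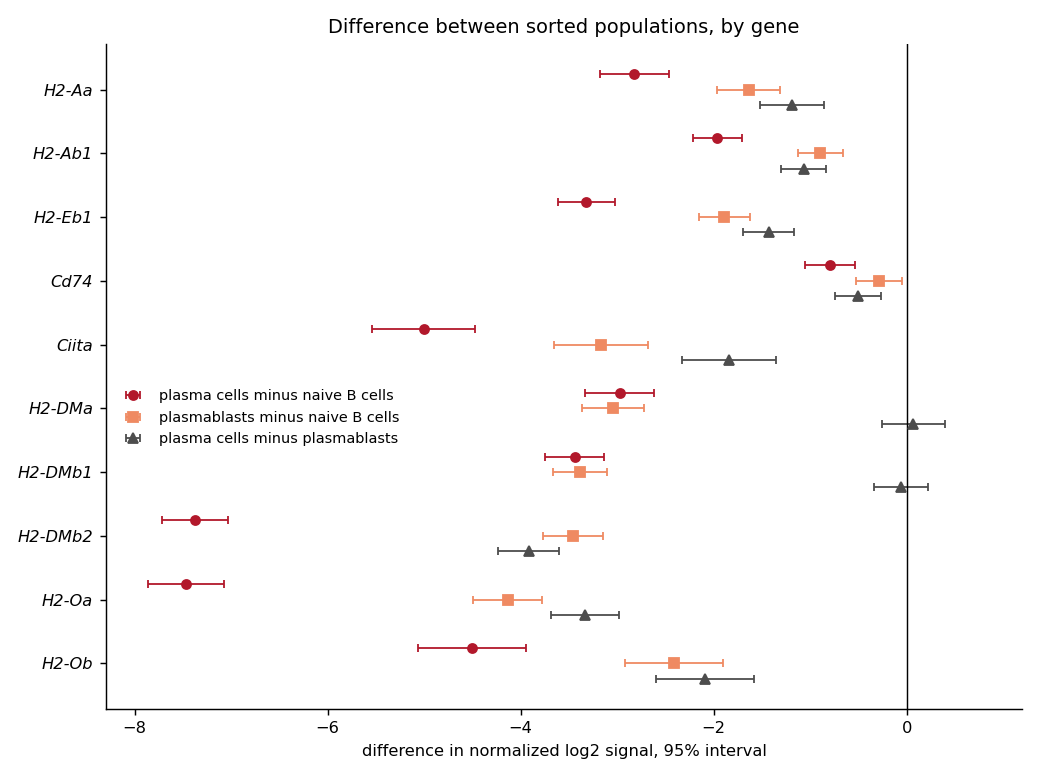
Difference in normalized log2 signal with its 95% interval from the limma fit, for plasma cells minus naive B cells, plasmablasts minus naive B cells and plasma cells minus plasmablasts. For H2-DMa and H2-DMb1 the first 2 comparisons overlap and the last interval spans 0. For H2-Oa the plasma cell values are below background and the plotted falls are not bounds.

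The share of the plasma cell log2 fall against naive B cells that was present in plasmablasts was highest for H2-DMa and H2-DMb1. It was 63.3% for Ciita, 45.6 to 57.9% for the classical chains, 46.9% for H2-DMb2, and 55.4% and 53.5% for H2-Oa and H2-Ob. The H2-Oa share rests on plasma cell values below background, and those of Ciita and H2-DMb2 on values close above the limit of detection. The lowest classical share, that of H2-Ab1, comes from the probe with its smallest falls. Differences among these shares were not tested. For H2-DMa the share was 102% and for H2-DMb1 98.4%. No share is given for Cd74, whose plasmablast difference changed sign under 75th percentile scaling. Over the 7 arrays the closest pair in centred log2 profile was H2-DMa with H2-DMb1 (root mean square difference 0.20), followed by H2-Aa with H2-Eb1 (0.23) and H2-DMb2 with H2-Oa (0.32), of which H2-Oa was below background in plasma cells. Outside the 10 genes, the profiles nearest to Ciita were those of Cd55, Slamf1, Rdh12, Fcrl1 and Lynx1 (0.14 to 0.24). Of these, Slamf1 and Rdh12 were below background on both plasma cell arrays and Fcrl1 and Lynx1 on 1 of 2, so their distances and order are uncertain. Nearest to H2-Aa were Ccr6, Dtx1, Kctd14, Il4i1 and Fam3c (0.09 to 0.13). Cd55 encodes a complement regulator, Slamf1 an immune cell receptor, Ccr6 a chemokine receptor and Dtx1 a regulator of Notch signalling. With 3 populations, many genes that differ between them have such profiles.

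Other class II genes lie beside the classical chains. H2-Eb2, a second beta chain gene of the E region, stood at 7.30 and 7.39 in plasma cells, 9.20, 9.15 and 9.16 in plasmablasts, and 11.83 and 11.72 in naive B cells. Its log2 differences against naive B cells were -4.43 in plasma cells (adjusted p = 3.33e-08) and -2.61 in plasmablasts (adjusted p = 1.04e-07). H2-Ea, the alpha partner of H2-Eb1, was below background on all 7 arrays. C57BL/6 mice are known to carry a promoter deletion in this gene.

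Other genes of the class II pathway did not move as a block. Of 21 listed, 15 were tested. Rfx5, Rfxank, Nfya, Ctsl, Marchf8 and H2-Ea were not above background on enough arrays. In plasma cells 7 of 15 were lower and 4 higher than in naive B cells (median -0.05), in plasmablasts 8 lower and 3 higher than in naive B cells (median -0.25), and in plasma cells 5 lower and 8 higher than in plasmablasts (median 0.28). Of all genes, 37.8% were called lower and 33.3% higher in plasma cells than in naive B cells, 37.8% lower and 35.3% higher in plasmablasts than in naive B cells, and 46.0% lower and 28.7% higher in plasma cells than in plasmablasts. Of the factors that hold Ciita on the promoter, Rfxap rose by a log2 difference of 0.54 in plasmablasts against naive B cells. In plasma cells Rfxap differed by 0.13 from naive B cells (adjusted p = 0.241) and by -0.41 from plasmablasts (adjusted p = 0.00226). Against naive B cells, Nfyb and Nfyc had differences of -0.02 and -0.21 in plasmablasts, not called, and of -0.74 and -0.64 in plasma cells, both called. Creb1, close to the limit of detection, had differences of 0.14 in plasmablasts and -0.05 in plasma cells, neither called. Marchf1, the ubiquitin ligase that removes class II from the surface, fell by 4.05 in plasmablasts against naive B cells, and stood 2.98 higher in plasma cells than in plasmablasts. Ifi30, the lysosomal thiol reductase, fell by 2.00 in plasmablasts against naive B cells and rose by 1.34 in plasma cells against plasmablasts. The protease genes Ctss and Ctsb rose by 1.51 and 1.36 and the tetraspanin gene Cd82 by 1.88 in plasma cells over plasmablasts. These rises stood on the arrays with the higher macrophage marker signal given above, and their link to it was not tested. That signal was lower in plasmablasts than in naive B cells, and its link to the falls there was not tested either. Sppl2a, the protease that clears the remaining stub of the invariant chain, rose by 1.94 in plasma cells and by 1.48 in plasmablasts over naive B cells.

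Among 11 tested regulators of Ciita and class II, 6 were lower and 3 higher in plasma cells, and 9 lower and 2 higher in plasmablasts, each against naive B cells. The shares are 54.5% lower and 27.3% higher in plasma cells, beside 37.8% and 33.3% of all genes, and 81.8% lower and 18.2% higher in plasmablasts, beside 37.8% and 35.3%. Prdm1, the Ciita repressor, stood at 7.38 ± 0.25 in plasma cells (SD, n = 2), 9.04 ± 0.15 in plasmablasts (n = 3) and 5.02 ± 0.14 in naive B cells (n = 2, below background). It was thus at least 1.81-fold higher in plasma cells and at least 5.70-fold higher in plasmablasts than in naive B cells, and fell by 1.66 in plasma cells relative to plasmablasts. The B cell transcription factor genes Spib, Irf8 and Ets1 had log2 differences of -3.16, -1.87 and -1.95 in plasmablasts against naive B cells, all called. Bcl6 fell by 3.16 in the same comparison (adjusted p = 1.9e-07). In plasma cells Bcl6 stood 3.59 above plasmablasts (adjusted p = 9.59e-08) and 0.43 above naive B cells (adjusted p = 0.0167). In plasma cells Spib was at least 30.8-fold lower than in naive B cells and Irf8 fell by 2.69. Spi1, which encodes PU.1 and is active in B cells and in macrophages, fell by 1.63 in plasmablasts against naive B cells but was 3.76 higher in plasma cells than in plasmablasts. The Spi1 and Bcl6 rises over plasmablasts came on the same arrays as the macrophage markers, whose part in them was not tested. Those markers were lower in plasmablasts than in naive B cells, and their part in the falls there was not tested either. The 1 probe for Pax5 was below background on all 7 arrays, those of naive B cells included. No difference in Pax5 could therefore be measured.

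Costimulatory and related surface genes, which B cells use with class II to engage T cells, had 7 of 11 tested genes lower and 3 higher in plasma cells than in naive B cells, beside 37.8% and 33.3% of all genes. In plasmablasts 10 of 11 were lower and 0 higher than in naive B cells, beside 37.8% and 35.3%. Fcer2a had the largest fall against naive B cells, by 4.58 in plasmablasts and at least 161-fold in plasma cells. Cd86 fell by 4.41 and Cd40 by 3.59 in plasmablasts. In plasma cells Cd86 and Icam1 stood 2.00 and 1.82 above plasmablasts, while the activation marker Cd83 fell by 2.67. Against plasmablasts Fcer2a was also at least 6.69-fold lower in plasma cells, and Pdcd1lg2, below background in plasmablasts, at least 1.67-fold higher. In that comparison 6 were higher and 5 lower, beside 28.7% and 46.0% of all genes. Macrophages express such surface genes too. Their markers had a median log2 difference of 2.94 in the same comparison and of -5.21 in plasmablasts against naive B cells. Their part in these rises and in the plasmablast falls was not tested. Without plasma cell replicate 1 the counts of 3 higher than naive B cells and of 5 lower than plasmablasts became 1 and 3.

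Class I presentation genes, several of which lie among the class II genes on chromosome 17, moved in both directions. Of 17 tested genes 7 were lower and 3 higher in plasma cells than in naive B cells (median -0.24), against 37.8% and 33.3% of all genes. In plasmablasts 3 were lower and 6 higher than in naive B cells (median 0.16), against 37.8% and 35.3% of all genes, and the 6 became 3 without naive B cell replicate 1. Psmb9, Tap1, Psmb8 and Tap2 lie between H2-DMb1 and H2-Ob in the RefSeq gene order. In plasmablasts against naive B cells their log2 differences were 0.15, 0.13, 0.14 and 0.65, of which Tap2 passed (adjusted p = 0.000789), beside -3.39 for H2-DMb1 and -2.41 for H2-Ob on either side. In plasma cells against naive B cells the differences were -0.39, -0.44, -0.21 and 0.22, of which Psmb9 and Tap1 passed (adjusted p = 0.00837 and 0.00509). The light chain gene B2m was 0.13 above naive B cells in plasma cells (adjusted p = 0.221) and rose by 0.22 in plasmablasts (adjusted p = 0.0473). Between plasma cells and plasmablasts 12 class I genes were lower and 2 higher, against 46.0% and 28.7% of all genes, and under cyclic loess scaling 7 and 4. That scaling gave a median over all genes of -0.01 in this comparison where it was -0.22, and made 52.5% of the calls higher where 38.4% had been.

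**Figure D5:**
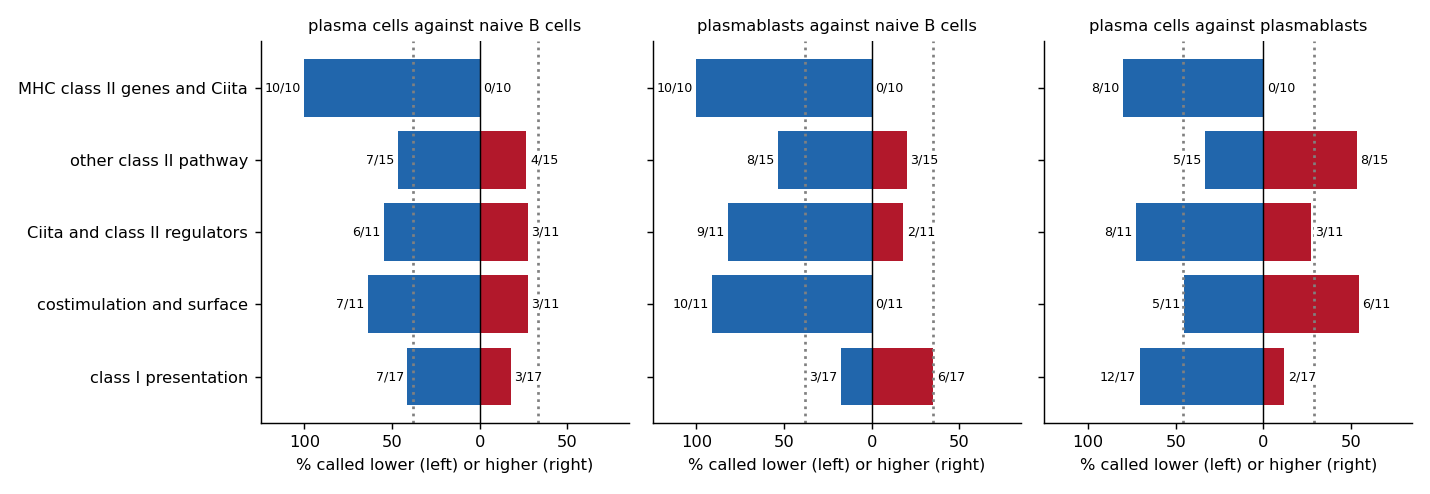
Share of tested genes called lower (left of 0) or higher (right of 0) at an adjusted p under 0.05, in each of 3 comparisons, with counts beside the bars. Dotted lines mark the share of all 7425 genes called in that direction. The 10 genes, Ciita among them, reach 10 of 10 lower against naive B cells in both LPS populations, and class I presentation 7 of 17 in plasma cells and 3 of 17 in plasmablasts.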

How the data were processed

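The authors deposited, for each probe and array, a scanner intensity with no background removed and no normalization between arrays, and a detection p-value, per the file headers. Signals were exported with GenomeStudio 2011.1, per the submitters' processing notes. A second deposited table of intensity values came within 0.0119 log2 units of the scanner values after quantile normalization and served as an alternative. Methylation sequencing was not analysed here.

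In R 4.3.3 with limma 3.58.1, the normexp model (limma's nec, offset 16) removed background inferred from detection p-values, followed by quantile normalization and log2. Probe symbols (23978 of 25697 probes had 1, 0 had several and 1719 had none) were updated through Entrez numbers in the RefSeq gene table of GRCm38.p6, used for names and gene order. Probes with a symbol were kept if 2 or more arrays showed them above background (10113), and the probe with the highest mean stood for each gene (7425 genes). Single-probe values come from the same model fitted to the 10113 probes, adjusted over them. The limma model had 3 group means over 7 arrays, 4 residual degrees of freedom and 3.78 prior ones. The code was also run on simulated arrays, whose outcome is not used as support here. The number of arrays limits the precision. The labels place all arrays on 1 chip, so no chip effect could be tested.

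Where all arrays of the lower group were below background, a fold is given as "at least", measured to the lowest signal above background on those arrays. A list's summed signal adds the normalized linear signal of its genes' brightest probes. All 10 genes are named. At most 6 called genes are named per list and comparison by size of change. A few others were chosen after their values were seen (Rfxap, Nfyb, Nfyc, Creb1, B2m, Psmb8, Psmb9, Tap1, Tap2 and single values given for comparison). The genes nearest to Ciita and H2-Aa are the 5 with the smallest root mean square difference. The 10 genes and all lists were chosen with earlier results of these data known. Alternatives covered scaling, background, offset, filter, probe choice, threshold, samples, replicate block and leaving out each array.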

Additional observations from a re-analysis of the deposited data

How the results depend on the processing

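Across 18 alternatives, 525 of 540 log2 differences of the 10 genes kept their direction and their side of the threshold. The 10 of 10 genes lower in plasma cells than in naive B cells and the 8 of 10 lower in plasma cells than in plasmablasts held under each alternative, and the 10 of 10 in plasmablasts became 9 where Cd74 was lost. The difference of Cd74 between plasmablasts and naive B cells was 0.10 under 75th percentile scaling, and its call was also lost with no filter on detection (Cd74 adjusted p = 0.0568), with the mean over probes (adjusted p = 0.0524) and at a threshold of 0.01. Between plasma cells and plasmablasts, H2-DMa became -0.041 under 75th percentile scaling and ran from -0.015 to 0.21 with 1 array left out, and H2-DMb1 became 0.18 under cyclic loess and ran from -0.15 to 0.036. The causes were not tested. Cyclic loess also gave 3 lower genes of the other class II pathway list in place of 5, and 3 lower costimulatory genes in place of 5, in that comparison. Low signals limit H2-Oa, H2-DMb2 and Ciita in plasma cells: without background correction, which leaves a higher floor, their differences against naive B cells were -5.90, -6.21 and -4.07, against -7.47, -7.37 and -5.01 with it.

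With the replicate number as a block, Cd74 in plasmablasts against naive B cells had a difference of -0.28 (adjusted p = 0.0692), and no other call among the 10 genes changed. The numbers are not known to pair samples: same-numbered plasma cell and plasmablast arrays deviated together with r = 0.17 and 0.09 across genes, and the naive B cells came from other mice.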
